A study of Mus musculus with 8 samples.

Results

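Dendritic cells are the antigen-presenting cells that take up material in the spleen and show it to T cells. Conventional type 1 cells (cDC1) present antigen of dead cells to CD8 T cells, conventional type 2 cells (cDC2) mainly prime CD4 T cells, and plasmacytoid cells (pDC) release type I interferon. They arise from bone marrow progenitors that carry the receptor Flt3, and they are a small share of the cells of a spleen. The 9 genes described here are used to tell these cells from other leukocytes, and are 9 of 21827 protein-coding genes. They were listed by name and by no measured value, with earlier results of these data known. Itgax encodes CD11c, an integrin chain common to dendritic cells and also carried by some macrophages and lymphocytes. Flt3 is the receptor of the dendritic growth factor Flt3 ligand. Zbtb46 is a transcription factor of conventional dendritic cells that is also used by endothelial cells and erythroid progenitors. Clec9a, a lectin that senses dead cells, and Batf3, an AP-1 family factor needed for cDC1 development, mark cDC1. Siglech, a sialic acid-binding lectin, and Tcf4, the E protein that holds pDC identity, mark pDC, and Tcf4 also acts in B cells. Irf8 is needed for cDC1 and pDC and acts in B cells and monocytes as well. Clec10a is a galactose-binding lectin that marks cDC2 in human.

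Chromatin accessibility was measured by ATAC-seq, in which the Tn5 transposase cuts open DNA and adds adapters, in nuclei from spleens of C57BL/6J mice that had been fixed in formalin and embedded in paraffin (FFPE). No other genotype was given, and both groups were fixed and tagmented. Libraries were made with reverse crosslinking (+RV), which frees DNA from formaldehyde-bound protein, or without it (−RV). By the study's methods, the nuclei were divided between +RV and −RV after tagmentation for bulk libraries. For single cells they were divided after the last barcode was ligated. Of 8 samples, 4 were bulk libraries (2 +RV and 2 −RV) and 4 were single-cell libraries. The bulk replicates are technical replicates by the study's account, so the spread between them is technical. The single-cell fragments form 1 merged set per condition, so each condition counted as 1 single-cell sample and no test was possible there. Each member was measured in its promoter (from 1000 bp upstream to 200 bp downstream of any TSS) and in the gene body extended by 50 kb on each side. Bulk peaks numbered 47755 and 47864 in +RV and 32288 and 32736 in −RV, and the reads behind them are unknown. The single-cell sets held 14747920 fragments of 18620 barcodes in +RV and 1727885 fragments of 2406 barcodes in −RV, and 2 barcodes occurred in both.

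Reference sequences are shown for the promoters whose calls the bulk results turn on, each 250 bases before to 50 bases after a RefSeq gene start (GRCm38.p6), and for windows of 201 bases around the summits of regions described below (GRCm38). A promoter sequence was matched for 7 of 9 members, with 8 sequences in all. All are written 5′ to 3′ along the strand of the gene. Capitals mark matches, on either strand, to GAGGAA (the core of PU.1 and other ETS factors), CAGCTG (an E-box of E proteins), TGANTCA (AP-1 and BATF), GAAANNGAA (an IRF repeat) or GGAANNGAA (an ETS-IRF composite).
Siglech promoter (chr7:55767934-55768233, + strand, peak in both +RV libraries and neither −RV library): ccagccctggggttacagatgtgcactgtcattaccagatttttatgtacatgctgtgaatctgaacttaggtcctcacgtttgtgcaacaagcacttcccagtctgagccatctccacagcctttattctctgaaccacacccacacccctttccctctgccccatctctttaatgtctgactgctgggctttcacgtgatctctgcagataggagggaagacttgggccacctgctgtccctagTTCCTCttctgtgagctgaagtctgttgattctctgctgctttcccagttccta
Batf3 promoter (chr1:191098164-191098463, + strand, peak in both +RV libraries and 1 −RV library): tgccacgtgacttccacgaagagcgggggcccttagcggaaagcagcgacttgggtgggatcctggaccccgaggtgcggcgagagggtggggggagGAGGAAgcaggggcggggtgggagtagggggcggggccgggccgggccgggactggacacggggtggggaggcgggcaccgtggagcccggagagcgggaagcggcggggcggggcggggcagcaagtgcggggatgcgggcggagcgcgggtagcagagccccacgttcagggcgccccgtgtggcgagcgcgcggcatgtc
Irf8 promoter (chr8:120736108-120736407, + strand, peak in all 4 libraries): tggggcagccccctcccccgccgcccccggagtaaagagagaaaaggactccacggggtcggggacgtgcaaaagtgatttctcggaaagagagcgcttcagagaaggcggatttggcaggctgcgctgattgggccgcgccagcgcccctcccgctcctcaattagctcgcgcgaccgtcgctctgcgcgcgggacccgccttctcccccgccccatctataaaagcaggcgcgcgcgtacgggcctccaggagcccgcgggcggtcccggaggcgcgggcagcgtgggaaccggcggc
Itgax promoter (chr7:128129300-128129599, + strand, no peak): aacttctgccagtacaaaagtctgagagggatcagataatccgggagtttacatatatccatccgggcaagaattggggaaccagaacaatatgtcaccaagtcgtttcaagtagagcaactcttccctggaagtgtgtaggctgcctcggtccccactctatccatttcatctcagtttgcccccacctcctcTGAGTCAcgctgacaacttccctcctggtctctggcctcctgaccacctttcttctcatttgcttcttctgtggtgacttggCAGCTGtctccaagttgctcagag
Siglech −2.6 kb (chr7:55765516-55765716, + strand, peak in both +RV libraries and neither −RV library): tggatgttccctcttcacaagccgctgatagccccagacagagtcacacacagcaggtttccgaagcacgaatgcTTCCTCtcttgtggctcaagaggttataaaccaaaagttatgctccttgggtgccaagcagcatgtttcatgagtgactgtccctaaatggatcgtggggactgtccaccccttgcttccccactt
Siglech +16.5 kb (chr7:55784600-55784800, + strand, peak in all 4 libraries): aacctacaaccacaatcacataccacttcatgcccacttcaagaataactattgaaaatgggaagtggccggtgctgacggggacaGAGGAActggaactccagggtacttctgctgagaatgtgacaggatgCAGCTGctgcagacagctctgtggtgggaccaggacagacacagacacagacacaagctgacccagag
Batf3 +40.2 kb (chr1:191138412-191138612, + strand, peak in both +RV libraries and neither −RV library): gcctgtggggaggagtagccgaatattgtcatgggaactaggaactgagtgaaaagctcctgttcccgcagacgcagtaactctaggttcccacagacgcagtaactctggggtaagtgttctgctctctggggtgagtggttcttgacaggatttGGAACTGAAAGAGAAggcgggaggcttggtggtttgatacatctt
Irf8 +41 kb (chr8:120777297-120777497, + strand, peak in both +RV libraries and 1 −RV library): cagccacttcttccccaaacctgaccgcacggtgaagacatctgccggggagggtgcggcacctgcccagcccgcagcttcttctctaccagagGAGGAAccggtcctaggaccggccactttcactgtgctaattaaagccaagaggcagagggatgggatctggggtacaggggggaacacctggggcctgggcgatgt
Flt3 +61.3 kb (chr5:147339113-147339313, − strand, peak in all 4 libraries): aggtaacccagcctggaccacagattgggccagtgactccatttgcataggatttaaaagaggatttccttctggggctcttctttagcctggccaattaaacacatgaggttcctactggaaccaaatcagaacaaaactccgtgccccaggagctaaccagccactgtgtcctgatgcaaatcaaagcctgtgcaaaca
Clec9a −1.3 kb (chr6:129407427-129407627, + strand, peak in all 4 libraries): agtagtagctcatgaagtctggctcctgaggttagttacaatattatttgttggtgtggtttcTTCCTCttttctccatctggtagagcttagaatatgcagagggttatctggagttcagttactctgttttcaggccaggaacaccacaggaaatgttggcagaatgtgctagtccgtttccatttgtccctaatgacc

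The Siglech promoter and its region at −2.6 kb each held 1 match to the ETS core, and the Itgax promoter held 1 AP-1 and 1 E-box match. In the Batf3 region at +40.2 kb an ETS-IRF composite and an IRF repeat overlapped in 1 capital run. The region at +16.5 kb from Siglech held an ETS core and an E-box match, whereas the Irf8 promoter and the Flt3 region at +61.3 kb held none of the letters searched. Over the 89 peak regions of the 8 members outside Tcf4, the share with a match was 34.8% for GAGGAA, 13.5% for CAGCTG, 10.1% for TGANTCA, 4.5% for GAAANNGAA and 12.4% for GGAANNGAA. Over all 60133 regions it was 28.9%, 14.4%, 6.9%, 7.5% and 8.2% in the same order. Over 32851 mouse promoters of 300 bases it was 28.3%, 16.3%, 7.8%, 8.6% and 8.2%. Several of these motifs can overlap, and a match describes letters and is not a bound site.

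The bulk comparison asks what reverse crosslinking changes in the regions called accessible. Promoters of 6 of 9 members had a peak in each +RV library, as did 53.6% of all protein-coding promoters, and 4 of 9 had one in each −RV library, as did 47.7%. Flt3, Zbtb46, Tcf4 and Irf8 were called in all 4 libraries, as were 47.7% of all promoters. Itgax, Clec9a and Clec10a were called in none, as were 43.5% of all promoters. Only Siglech was called in both +RV libraries and in neither −RV library, a pattern of 3.48% of promoters, and no member showed the opposite pattern (0.0137%). For the promoters called in no library, fewer cells of a type and less open chromatin per cell cannot be told apart in bulk tissue.

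Among the promoters called in all 4 libraries, the peak of Flt3 was the weakest in −RV. Its −log10 q, the caller's measure of how far a peak stands above its own library's background, was 19.94 and 23.14 in +RV and 8.92 and 5.8 in −RV. Its fold over local background was 6.25 and 6.59 in +RV and 4.76 and 3.78 in −RV. For both measures the groups did not overlap. The Irf8 promoter had folds of 6.29 and 6.52 in +RV and 5.92 and 5.94 in −RV, and the Tcf4 promoter 6.47 and 6.85 in +RV and 5.79 and 5.61 in −RV. Both were higher in each +RV library than in either −RV library. The Zbtb46 promoter had folds of 5.67 and 6.53 in +RV and 5.98 and 6.78 in −RV, so its groups overlapped, although its −log10 q of 34.88 and 43.63 in +RV lay above 22.44 and 30.66 in −RV. No test was made of these values, which the caller sets against each library's own background.

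Siglech and Batf3 had the weakest promoter peaks of the 6. The Siglech peak had a −log10 q of 4.13 and 5.52 in the +RV libraries, with folds of 3.26 and 3.57, and its summits lay at −109 and −53 bp from the nearest TSS. The lowest −log10 q of any peak was 2.23 and 2.28 in those libraries and 2.42 and 2.41 in −RV. Batf3 had −log10 q of 12.5 and 9.39 in +RV and 4.58 in −RV replicate 1, with no peak in −RV replicate 2. So Batf3 differed in call between the −RV libraries, and 5 members rather than 4 were called without that replicate.

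Around the genes, peak summits within 50 kb were counted in each library. On GRCm38 the genes lie at chr7:128129547-128150657 (Itgax), chr5:147330741-147400489 (Flt3), chr2:181387762-181459426 (Zbtb46), chr6:129408862-129424763 (Clec9a), chr1:191097847-191108945 (Batf3), chr7:55768178-55778925 (Siglech), chr18:69343356-69689079 (Tcf4), chr8:120736358-120756694 (Irf8) and chr11:70156197-70170834 (Clec10a). Tcf4, whose window is the longest at 445.7 kb, had 23 and 26 peaks in +RV and 12 and 16 in −RV. Irf8 had 12 and 16 in +RV and 8 and 9 in −RV. Flt3 had 15 and 13 in +RV and 12 and 10 in −RV. In all of these genes both +RV libraries lay above both −RV libraries. Batf3 had 11 and 11 peaks in +RV and 6 and 7 in −RV. Clec9a had 8 and 10 in +RV and 6 and 6 in −RV. Itgax had 7 and 6 in +RV and 4 and 5 in −RV. These groups did not overlap either. Siglech had 5 and 5 in +RV and 2 and 2 in −RV, the highest ratio of means among the members at 2.5. Zbtb46 had 12 and 10 in +RV and 9 and 11 in −RV, and was the gene with peaks whose groups overlapped. Clec10a had no peak in any library, as had 16.7% of all genes.

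**Figure D1:**
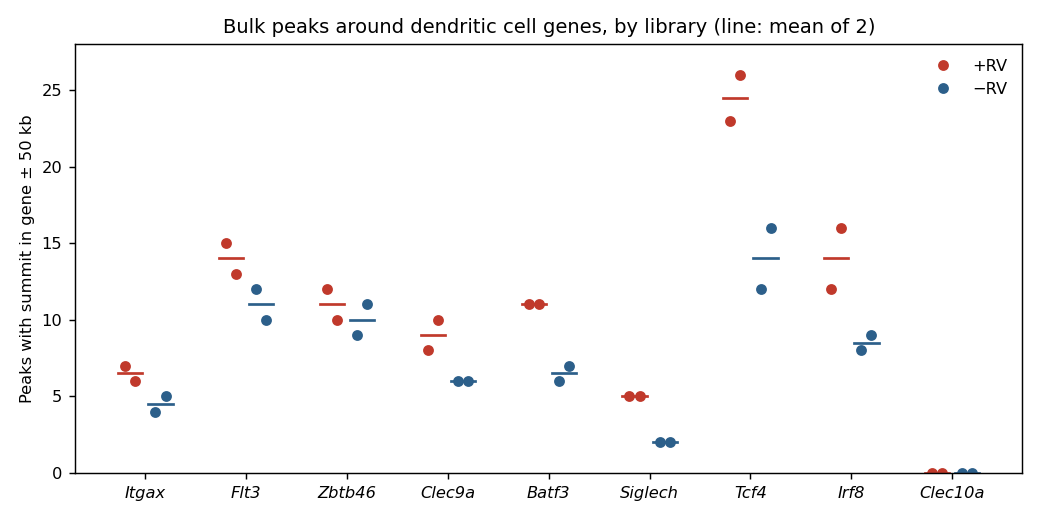
Number of bulk peaks with a summit in the gene body extended by 50 kb on each side, for each of the 9 genes. Points are the 2 libraries of a condition (+RV red, −RV blue) and lines their mean, and in 7 genes both +RV points lie above both −RV points.

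So 7 of 9 members had both +RV libraries above both −RV libraries, a pattern of 39.7% of all genes, and 0 had both below (1.15%). The 16.7% of all genes without a peak in any library could show neither pattern. In both conditions the median number of peaks was higher for the members than for all genes. The shares were not matched for peak number, so 7 of 9 is not read as an excess in the members' windows. Summed over members, 93 and 97 peaks lay in these windows in +RV and 59 and 66 in −RV, means of 95 ± 2.83 and 62.5 ± 4.95 (SD, n = 2 each). The groups did not overlap, and the ratio of means was 1.52. The exact two-sided permutation test over the 4 libraries gave p = 0.33, the smallest that 2 against 2 can give. Over all genes the ratio of summed counts was 1.361. When the same number of best-ranked peaks (32288) was taken from each library, the members had a mean of 62.0 peaks in +RV and 62.0 in −RV, so the higher count was not there among an equal number of peaks.

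The peaks of the 4 libraries formed 119 regions around the members, of which 45 (37.8%) were called in all 4 libraries, against 39.2% of 60133 regions overall. Both +RV libraries alone called 13 (10.9% of members' regions, 12.5% overall), and both −RV libraries alone called 0 (0.427% overall). In the 45 shared regions the median fold was 5.18 in +RV and 4.27 in −RV, against 5.7 and 4.97 over all shared regions. The mean fold was higher in +RV in 36 of 45 (80%), against 70.5% of all shared regions, so the members followed the direction of shared regions in general.

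**Figure D2:**
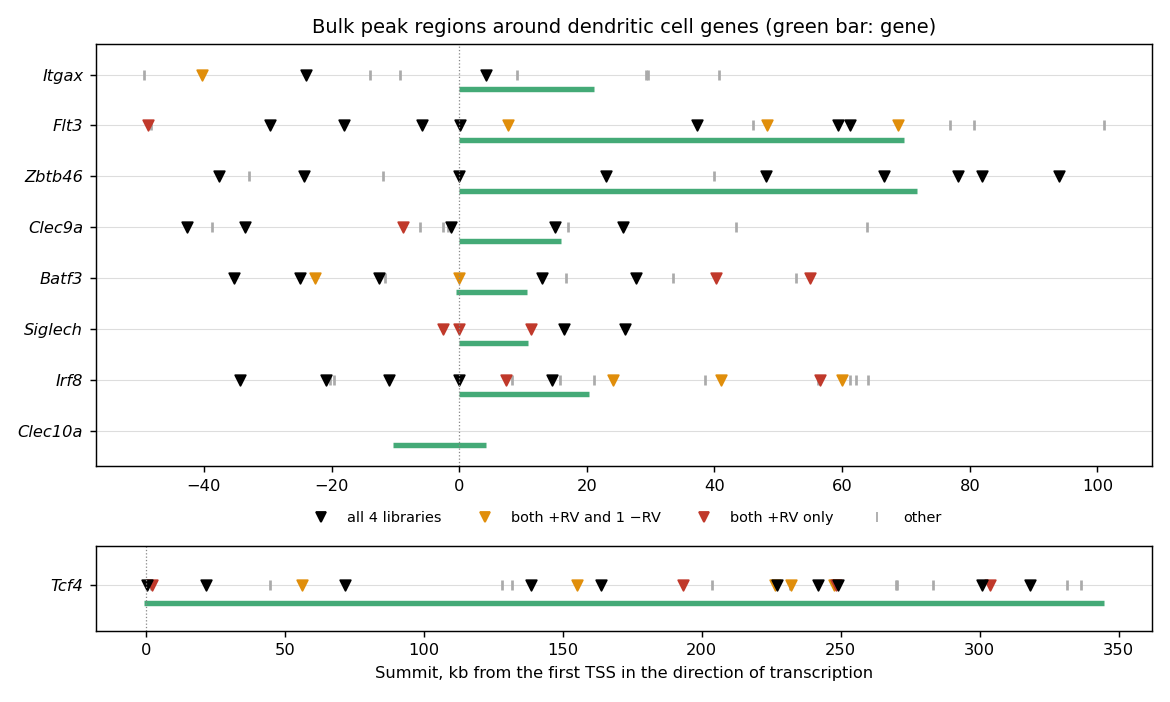
Positions of the merged peak regions around each gene, in kb from its first TSS along the direction of transcription, with the gene as a green bar and Tcf4 on its own axis. Black, orange and red triangles mark regions called in all 4 libraries, in both +RV and 1 −RV library, and in both +RV libraries only, and grey ticks mark all others, and Clec10a has none.

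Regions called in both +RV libraries only lay at 6 of the members. Siglech had 3 of its 5 regions in this class, its promoter and regions at −2.6 kb and +11.2 kb. The region at −2.6 kb had folds of 4.64 and 4.74 in the +RV libraries. Tcf4 had 4 such regions of 30, Batf3 had 2 of 13, at +40.2 and +55.0 kb, and Irf8 had 2 of 20. Flt3 and Clec9a had 1 each, and Zbtb46, Itgax and Clec10a had none. The 2 Siglech regions called in all 4 libraries lay at +16.5 kb, with folds of 6.68 and 7.7 in +RV and 6.05 and 5.2 in −RV, and at +26.0 kb on the promoter of Tubgcp5, a gamma-tubulin complex gene.

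Some members' regions belong to neighbouring promoters. The region at −29.6 kb from the first TSS of Flt3 lay on the promoter of Pan3, and that at −35.3 kb from Batf3 on the promoters of Tatdn3 and Nsl1. In the Zbtb46 window the promoters of Tpd52l2, Lime1, Arfrp1 with Zgpat and, in 1 +RV library, Abhd16b carried peaks, and in the Clec9a window that of Clec1a did in 1 +RV library. Clec9a itself had no promoter peak, but a region called in all 4 libraries lay at −1.3 kb, inside the neighbouring lectin gene Clec1b. Its folds were 6 and 4.62 in +RV and 2.87 and 3.23 in −RV. Itgax likewise had a region called in all 4 libraries, 4.2 kb into the gene on an exon, with folds of 3.19 and 4.22 in +RV and 3.34 and 4.66 in −RV. The +RV libraries were above both −RV libraries for the Clec9a region and overlapped them for the Itgax region.

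Irf8 regions lay from −34.4 to +64.1 kb. Distances of 32, 41 and 56 kb, known from other mouse work as enhancers of this gene, were looked at after its values were seen. In windows of 2 kb around them a peak was called in no library at +32 kb, in both +RV libraries and 1 −RV library at +41 kb, and in both +RV libraries only at +56 kb. Single-cell fragments there numbered 35 in +RV and 3 in −RV at +32 kb, 30 and 5 at +41 kb, and 49 and 3 at +56 kb. The mean of 2 kb over the whole Irf8 window was 3.0 CPM (fragments scaled to the nuclear total of a set) in +RV and 2.54 CPM in −RV. Levels at the distances were 2.55, 2.19 and 3.58 CPM in +RV and 1.88, 3.14 and 1.88 CPM in −RV, in the order of distance, and each 95% Poisson interval held that mean, so no distance stood apart. All Irf8 regions past the gene lie inside Gm20388, a gene model that runs through the locus.

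In the single-cell sets, the members' promoters took 1258 fragments in +RV and 118 in −RV, or 91.8 CPM (86.8 to 97.0) and 74.1 CPM (61.3 to 88.7). The ratio was 1.24, with an exact 95% interval of 1.03 to 1.51. Intervals cover counting error only, and by the deposit's label the authors had selected barcodes on their fraction of reads in this window. The ratio fell below 1 with barcodes of at least 1000 fragments, at 0.977 (0.665 to 1.49), and with fragments over 50 and up to 100 bp, at 0.967 (0.757 to 1.25). The interval included 1 when scaled to fragments in regions called in all 4 bulk libraries, at 1.05 (0.869 to 1.28), and over the 3 members with at least 10 fragments in −RV, at 1.19 (0.974 to 1.46). The members' median log2 ratio, with 1 CPM added, was 0.31, and that of all genes with a fragment was 0.20. With 1 CPM added, Flt3 and Batf3 were the 2 of 9 members at least 1.5-fold higher in +RV, as were 17.4% of genes, and 0 were at least 1.5-fold lower (6.67%). Without it, Flt3 had 40 fragments in +RV and 1 in −RV, so the ratio was 4.65 (0.788 to 188), and Batf3 had 36 and 1, a ratio of 4.18 (0.704 to 170). Siglech, with 17 and 1, was at 1.98 (0.310 to 82.6), and Clec10a, with 14 and 1, at 1.63 (0.248 to 68.8). All 4 intervals include 1, so none of these differences was detectable at this depth. The most promoter fragments fell to Tcf4, with 707 fragments in +RV and 67 in −RV over its 14.1 kb of promoter windows, and Zbtb46, with 226 and 27. Per kb of window, Zbtb46 was highest of the 9 at 6.87 CPM in +RV and 7.06 in −RV, above 71.6% and 76.6% of all genes, followed by Irf8 at 4.92 and 3.40 and Tcf4 at 3.66 and 2.99. Clec10a was lowest in +RV at 0.821, above 40.1%.

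**Figure D3:**
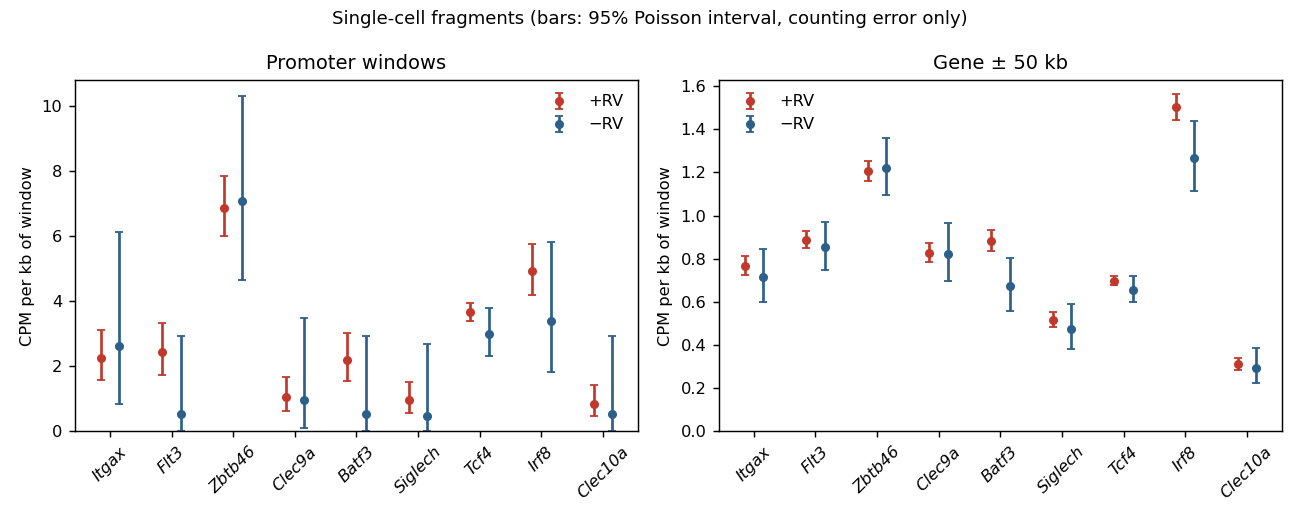
Single-cell level of each gene, as CPM per kb of window, in the promoters (left) and in the gene body extended by 50 kb on each side (right). Points are the +RV set (red) and the −RV set (blue), 1 set per condition, with 95% Poisson intervals, and in the right panel the intervals of Batf3 and of Irf8 do not overlap.

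Over the 50 kb windows the members took 16847 fragments in +RV and 1821 in −RV, giving a ratio of 1.08 (1.02 to 1.13). Scaled to fragments in regions called in all 4 bulk libraries it was 0.911 (0.868 to 0.957), the opposite direction. None of the 9 was 1.5-fold higher (1.9% of genes were) or lower (0.989%). Batf3 had 1345 and 119 fragments and a ratio of 1.31 (1.09 to 1.6), and Irf8 had 2476 and 243 and a ratio of 1.18 (1.04 to 1.36). In these 2 genes alone the interval lay above 1. In the gene windows used for clusters (the gene with 5000 bp before it and 500 bp after it) Irf8 was 1.40 (1.10 to 1.81), with 854 and 71 fragments. Clec10a had the fewest fragments per kb over 50 kb, 0.312 CPM in +RV and 0.296 in −RV, and Irf8 the most, 1.5 and 1.27. Within each of the 20 Tn5 indices (the part of a barcode carried by the transposase) found in both sets, the summed ratio was above 1 in 16 and had a median of 1.09 and a range of 0.920 to 1.37.

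Bulk and single-cell data were set side by side at the members' regions. The 13 regions called in both +RV libraries only took 254 fragments in +RV and 15 in −RV, giving a ratio of 1.97 (1.17 to 3.57). These regions were selected for bulk calls in +RV alone, so a ratio above 1 is no separate result about the members. The ratio over all such regions of the genome was not computed. The 45 regions called in all 4 took 3349 and 332, a ratio of 1.17 (1.05 to 1.32). All other regions took 833 and 87, a ratio of 1.11 (0.891 to 1.40). The interval of the first group overlapped that of the second. Fragments in regions called in all 4 libraries were 18.5% of nuclear fragments in +RV and 15.7% in −RV over the whole genome.

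Fragment length differed between the sets for every member. Long fragments, above the size of the DNA that wraps 1 nucleosome, were 23.4% (22.7 to 24.0) of those in the 50 kb windows in +RV and 2.03% (1.43 to 2.79) in −RV. Over the genome the shares were 20.4% and 2.29%. Flt3 had 26.0% in +RV and 0.433% in −RV, and Irf8 26.0% and 2.06%. Siglech was lowest in +RV at 17.5% (14.9 to 20.3) and had 4.76% (1.31 to 11.7) in −RV. For Clec10a it was 23.9% in +RV, with 0 of 54 fragments in −RV, which allows a share of up to 5.56% (3 counts of the total). In the promoters the shares were 27.4% in +RV and 4.24% in −RV. Reads had been shortened by the authors before mapping, and the effect of this on fragment lengths was not tested.

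**Figure D4:**
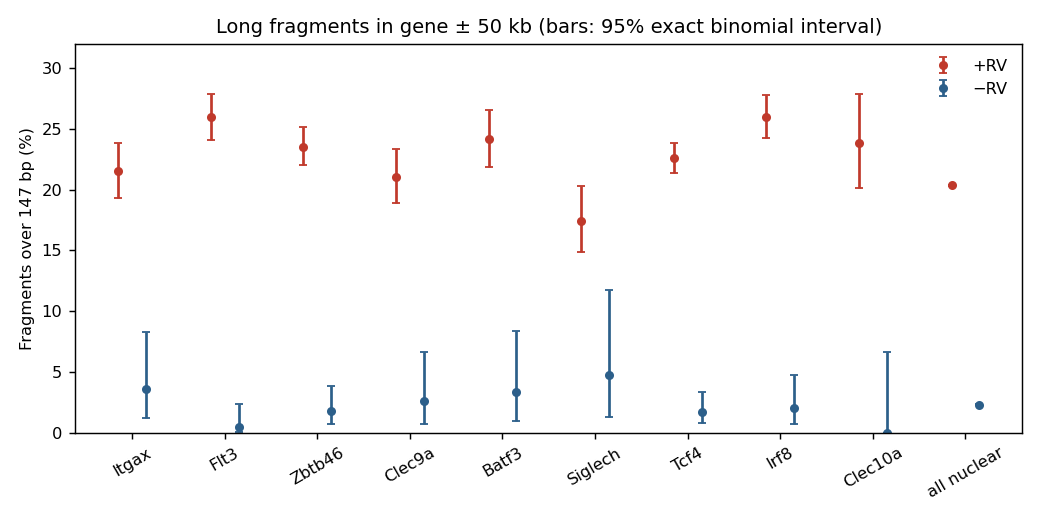
Share of single-cell fragments above nucleosome-core size in the gene body extended by 50 kb, for each gene and for all nuclear fragments. Points are the +RV set (red) and the −RV set (blue) with 95% exact binomial intervals, and every +RV interval lies above its −RV interval.

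To see in which cells the members' DNA was open, barcodes of both sets were clustered together on 5000-bp bins outside the members' windows. Of 9 clusters, 8 took a name from marker lists (B cell-like, T cell-like, 2 erythroid-like, stromal-like, endothelial-like, plasma cell-like and acinar-like). Cluster 4 had neutrophil markers as its highest list (ratio 2.66), followed by macrophage and monocyte markers (2.38). Among its 10 most raised genes with at least 20 fragments, the second list held C1qb and the first held none. The naming rule gives no name in such a case, so cluster 4 stayed unnamed. Dendritic lists were not among the names a cluster could take. Other cDC1 genes were 1.91 times as high in the unnamed cluster as in all other barcodes, with 10 of 11 raised, and the 9 members 1.22 times, with 7 raised. Other cDC2 genes were at 1.44 there (9 of 11 raised), shared growth factor and regulator genes at 1.13 (6 of 12) and other pDC genes at 0.973 (5 of 12). The members' ratio was 1.42 in the plasma cell-like, 1.40 in the endothelial-like and 1.31 in the B cell-like cluster. In that order 2, 4 and 6 of the 9 were raised. These ratios sum fragments, and Tcf4 held 3949 of the 7920 in +RV. A member's level over its own mean across clusters had a +RV median of 2.03 in the unnamed cluster. This median was 0.929 in the plasma cell-like, 0.969 in the endothelial-like and 1.23 in the B cell-like cluster. The spleen label is met by B cell-like and T cell-like clusters in which 12 of 12 and 14 of 14 markers were raised. The study, with its own filters and clustering, reported that clusters from this conventional method on FFPE spleen did not resolve spleen cell types. Why the outcomes differ was not tested. Acinar-like barcodes, with genes of the exocrine pancreas, were 3.2% of the +RV and 7.7% of the −RV set. The unnamed cluster held 13.9% of +RV and 10% of −RV barcodes, the B cell-like cluster 23.9% and 19.7%, and the erythroid-like cluster 3 held 13.0% and 19.2%. The part of these shares in the members' ratios between the sets was not tested.

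Levels are given for the +RV set in CPM of the gene window within a cluster. Itgax, Clec9a, Batf3 and Siglech were all highest in the unnamed cluster of macrophage and neutrophil genes, as were 7.0% of all genes with at least 50 +RV fragments. This depended on the clustering. The recipe run first, with log-transformed weights, gave 23 clusters and was replaced after its clusters were seen. With it none of the 4 was highest in such a cluster (Itgax, Clec9a and Batf3 were highest in clusters led by stromal markers and Siglech in one led by T cell markers). At resolution 2 Itgax was highest in a cluster led by B cell markers, and with promoter windows Siglech was highest in the endothelial-like cluster. In the clustering reported, Itgax was at 57.3 CPM (47.5 to 68.5) in the unnamed cluster and 48.2 (39.3 to 58.6) in the T cell-like cluster. It was at 33.3 (27.2 to 40.4) in the B cell-like cluster and at 1.82 in the acinar-like cluster. The first 2 levels overlapped. Batf3 was at 26.2 CPM (19.8 to 34.2) in the unnamed cluster and 19.7 (13.2 to 28.2) in the stromal-like cluster, which also overlapped. Siglech was at 18.1 (12.8 to 24.9) in the unnamed and 12.7 (9.06 to 17.4) in the B cell-like cluster, and Clec9a at 44.4 (35.8 to 54.4) in the unnamed and 41.9 (30.4 to 56.5) in the endothelial-like cluster. So for each of the 4 the interval of the highest cluster overlapped that of the next.

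**Figure D5:**
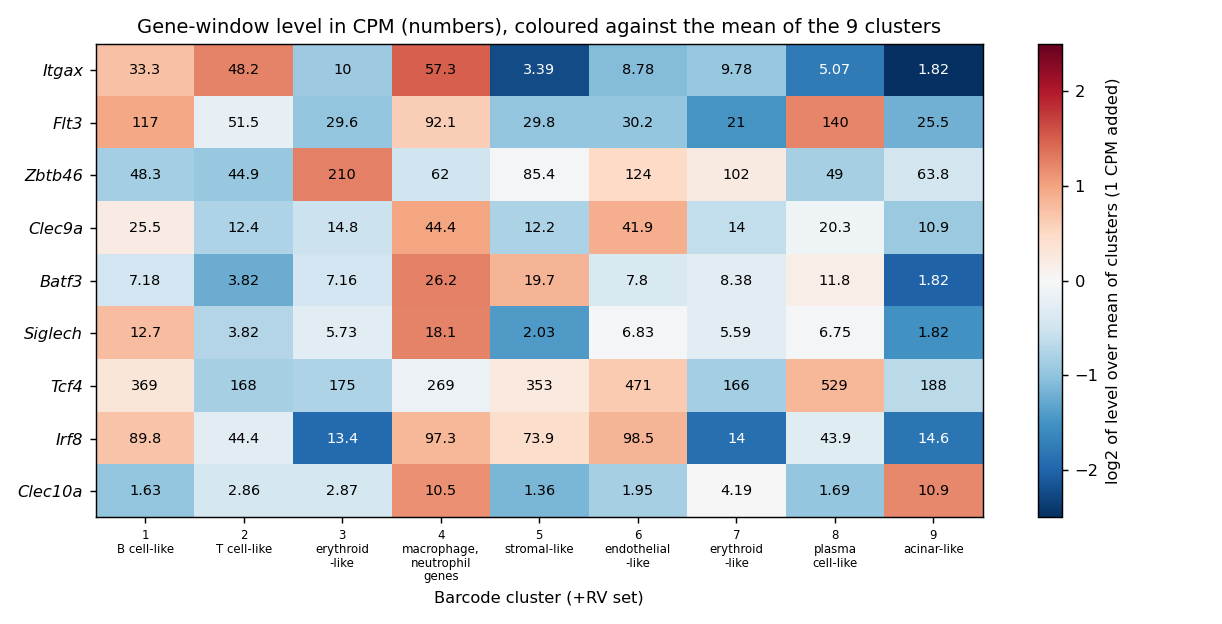
Gene-window level of each gene in the 9 barcode clusters of the +RV set, as CPM (numbers), coloured by log2 of the level over the gene's mean over clusters, with 1 CPM added. Itgax, Clec9a, Batf3 and Siglech are highest in cluster 4, which holds macrophage and neutrophil genes, and Zbtb46 in the erythroid-like cluster 3.

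The other 5 members had other orders. Zbtb46 was highest in the erythroid-like cluster 3 at 210 CPM (191 to 231), clear of 123.9 (103.3 to 147.4) in the endothelial-like cluster, and lowest in the T cell-like cluster at 44.9. It was the only member whose highest level was clear of the next. Its promoter region took 105 of its 251 fragments from that cluster. Flt3 was highest in the plasma cell-like cluster at 140 (112 to 174), with the B cell-like cluster at 117 (105 to 130). Tcf4 was highest there too, at 529 (472 to 590), with the endothelial-like cluster at 471 (430 to 515). Irf8 was at 98.5 (80.2 to 120) in the endothelial-like cluster, 97.3 (84.4 to 112) in the unnamed cluster and 89.8 in the B cell-like cluster. In the erythroid-like cluster 3 it was at 13.4. Clec10a rested on 53 fragments, and its 10.9 CPM in the acinar-like cluster and 10.5 in the unnamed cluster did not differ beyond counting error. In the −RV set Itgax, Zbtb46, Clec9a, Batf3, Tcf4 and Irf8 were highest in the same cluster as in +RV. The −RV fragments there were only 13 for Itgax, 12 for Clec9a, 11 for Irf8 and 5 for Batf3. For each of these genes the −RV interval overlapped that of the next cluster.

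Some regions are given as examples, picked by their values and not as a count over all regions. Many other regions of the members were highest in other clusters. In the unnamed cluster lay 7 of the 9 +RV fragments of the Siglech region at −2.6 kb. So did 9 of 11 of the Batf3 region at +40.2 kb and 18 of 33 of the Itgax exon region at +4.2 kb. The Siglech region at +16.5 kb split between the B cell-like cluster, with 29 of 57 fragments, and the unnamed cluster, with 19. The Flt3 intron region at +61.3 kb was at 23.6 CPM in the plasma cell-like and 16.0 in the B cell-like cluster. A Tcf4 promoter at +71.6 kb took 23 of 43 fragments from the endothelial-like cluster, at 22.4 CPM against 2.71 in the next cluster. Of these examples, only the Tcf4 promoter had a highest level whose interval was clear of the next. These regions show which clusters the fragments came from, and with so few fragments most orders rest on counting error.

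For each member with at least 100 fragments, the pattern over the 9 clusters of the +RV set was compared with that of 11117 other genes on another chromosome or over 1 Mb away. The highest Pearson r were 0.954 (Slc26a11) and 0.937 (Cd84) for Itgax, 0.987 (Rubcnl) and 0.965 (Fcrl5) for Flt3, and 0.978 (Bloc1s5) and 0.946 (Thsd7b) for Zbtb46. They were 0.971 (Lmln) and 0.910 (Tbc1d31) for Clec9a, 0.959 (Vsnl1) and 0.936 (Bcas1) for Batf3, and 0.951 (Rab39) and 0.947 (Grm5) for Siglech. For Tcf4 they were 0.959 (Pxdc1) and 0.951 (Endou), and for Irf8 an r of 0.955 was found with Zfp619. The points share a library and depth, and each value is among the highest of a search of 11117 genes over only 9 points. Such a search returns high r for unrelated patterns too, so these values describe the clusters and do not link the genes. Between members, the highest r were 0.811 for Clec9a with Siglech, 0.713 for Clec9a with Irf8 and 0.705 for Tcf4 with Irf8, and the lowest was −0.65 for Flt3 with Zbtb46.

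Members were seldom seen together in a barcode, and the share that their single rates alone would give was not computed. With each barcode thinned to 500 fragments, 390 of 15968 barcodes in +RV (2.44%, 2.21 to 2.69) and 48 of 1949 in −RV (2.46%, 1.82 to 3.25) had fragments in the gene windows of 2 or more members. The shares did not differ beyond counting error. In +RV the most frequent pairs held Tcf4, whose gene window of 351.2 kb is the longest. They were seen in 81 barcodes with Flt3, 79 with Irf8 and 75 with Zbtb46. Barcodes with 3 or more were 19 in +RV (0.119%) and 0 in −RV, which allows up to 0.154% (3 counts of the total). With all fragments of a barcode the shares of 2 or more were 5.50% in +RV and 4.67% in −RV. The thinning left out 2652 barcodes in +RV and 457 in −RV with fewer nuclear fragments. By cluster, in +RV, the share of 2 or more was 3.95% (2.95 to 5.17) in the endothelial-like, 3.38% (2.83 to 4.0) in the B cell-like and 3.15% (2.49 to 3.93) in the unnamed cluster, and 0.963% (0.314 to 2.23) in the acinar-like cluster. How far these cluster shares follow the level of Tcf4 was not tested.

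Other genes of the same cells were read from lists of 11 to 12 genes. Of 11 other cDC1 genes, 8 promoters had a peak in each +RV library and 8 in each −RV library, where 53.6% and 47.7% of all promoters did. Of 11 other cDC2 genes these counts were 6 and 5, of 12 other pDC genes 10 and 7, and of 12 shared growth factor and regulator genes 9 and 7. Esam, an adhesion gene of cDC2, and Ccr9, a chemokine receptor of pDC, were, with Siglech, those called in both +RV libraries and neither −RV library. In single cells, Klf4, a factor of cDC2, had 240 promoter fragments in +RV and 15 in −RV, giving a ratio of 1.86 (1.10 to 3.37), and Notch2, a receptor for cDC2, had 177 and 9, a ratio of 2.29 (1.18 to 5.08). The intervals of the other 6 genes named with them (Id2, Cd24a, Bcl11a, Bst2, Stat3 and Zeb2) included 1. Over clusters, only genes with at least 50 +RV fragments in the gene window were counted, which were 9 of the other cDC2 genes. Of these, 2 of 9 were highest in the unnamed cluster, as were 5 of 11 other cDC1 genes, 1 of 12 other pDC genes and 3 of 12 shared genes. The share of all genes with at least 50 fragments was 7.0%. Among pDC genes 4 of 12 were highest in the B cell-like cluster (6.4% of all genes with at least 50 fragments) and 3 in the plasma cell-like cluster (11.7%).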

How the data were processed

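Per the file headers and methods, the authors deposited 1 peak list per bulk library (mm10) in MACS2 layout, with a score of 10 times the −log10 q, a fold (ratio over local background), −log10 p and −log10 q. The single-cell files hold, as other values deposited by the authors, where each unique fragment begins and ends and its barcode, merged over the libraries of a condition, with at least 500 fragments per barcode. Reads were cut before mapping. SEACR 1.3, Picard 1.119, SAMtools 1.15 and Bowtie2 2.4 stand, without roles, in the submitters' processing notes, whereas the study's methods name MACS2 and BWA. The sources differ, and which tools made the bulk lists was not settled.

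Genes were 21827 protein-coding genes of GENCODE vM21. Peaks were counted by summit, with promoters called by 1 bp of overlap, and fragments by midpoint, scaled to nuclear fragments (CPM). Library counts were compared by exact permutation, single-cell counts by exact intervals at 95%. Clusters came from latent semantic indexing (component 1, r = 0.917 with depth, left out) and Leiden (leidenalg 0.10.2, scikit-learn 1.9.0, scipy 1.17.1). The clustering recipe replaced a first one after its clusters were seen, and the naming rule was set after seeing the data. No doublet caller was run. The counting steps were tested on simulated data. Members and lists were chosen with earlier results of these data known. Text names all members, listed dendritic genes by call or level, and the 2 most alike genes, of which 1 is not reported here. Alternatives covered thresholds, windows, pseudocounts, depth and fragment classes.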

Additional observations from a re-analysis of the deposited data

How the results depend on the processing

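Taking the same number of peaks per library left a difference of 0.0 in summed peaks within 50 kb. The single-cell promoter ratio turned below 1, to 0.977 with barcodes of at least 1000 fragments and 0.967 with fragments over 50 and up to 100 bp, and the 50 kb ratio to 0.911 when scaled to fragments in regions called in all 4 bulk libraries. Members at least 1.5-fold higher at the promoter numbered 0 with a pseudocount of 5 CPM, 5 with barcodes of at least 1000 fragments and 4 with fragments over 50 and up to 100 bp. The median log2 ratio of all genes was 0.06, 0.32 and 0.08 in that order. With the barcode minimum, and with the fragment class, 1 member was at least 1.5-fold lower. A minimum of 10 fragments in −RV left 3 members without Flt3 and Batf3, so its count of 0 was set by the minimum. With barcodes of at least 1000 fragments the 50 kb ratio was 1.20 and 1 member was past the fold. The shares of all genes past the fold given above belong to the main settings. None is given for these settings, so the counts are not read as results about the members. Members together in a barcode were 5.50% in +RV and 4.67% in −RV with all fragments. The clustering recipe run first, which was replaced after its clusters were seen, put 2 members, Tcf4 and Clec10a, highest in clusters of macrophage or neutrophil genes, and none of Itgax, Clec9a, Batf3 and Siglech. The recipe reported put 4 there, and its other settings 3 to 6. The cause was not tested. Leaving out a library gave 6 to 6 promoter calls in +RV, 4 to 5 in −RV and differences of 29.0 to 36.0 peaks. As a paired analysis with a replicate block, the difference was 32.5 peaks (34 and 31 by number), with an exact sign-flip p = 0.5, the smallest possible. The numbers do not pair samples by the data (r of deviations −0.007 over genes).

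Depth limits the −RV set, where 6 of 9 promoters held 5 or fewer fragments. The number of reads behind the bulk lists is unknown. With 1 merged single-cell set per condition, library spread could not be measured.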
